A study of Mus musculus with 4 samples.

Results

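The IFIT genes (interferon-induced proteins with tetratricopeptide repeats) were examined in 4T1, a mammary carcinoma line of the mouse. All 6 members considered (Ifit1, Ifit1bl1, Ifit1bl2, Ifit2, Ifit3 and Ifit3b) were found among the 53647 genes of the count tables by joining Ensembl identifiers to mouse symbols. Wild-type 4T1 cells received mRNA for EGFP (Mock, 2 libraries) or mRNA for uniSTING (2 libraries), an engineered mimic of the adaptor protein STING. The labels give a transfection reagent or lipid nanoparticles as the carrier, without assigning one to a library, and no dose or time. Both groups therefore carried delivered mRNA, and no library of cells without it was analysed here.

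IFIT proteins are cytoplasmic RNA-binding proteins built from helical repeats. IFIT1 holds RNA ends that lack the host's cap methylation and blocks their translation, IFIT2 prefers AU-rich RNA and has been linked to apoptosis and to control of virus replication, and IFIT3 acts as an adaptor in IFIT complexes and in antiviral signalling. Their genes are among the most strongly interferon-induced in the mouse. Transcription starts after a complex that holds STAT2 and IRF9 binds an interferon-stimulated response element, and IRF3, activated below STING by the kinase TBK1, can switch on Ifit1 through the same kind of element without interferon.

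The 6 genes lie within 99.3 kb of chromosome 19 (34528094 to 34627409, GRCm39), 4 on the plus and 2 on the minus strand, and no exon of any of them overlaps an exon of another gene within 100 kb. Ifit1bl2 and Ifit1 stand head to head with 127 bases between them. The counts of Ifit2 sum exons that begin at an upstream start and a 3353-base last exon that starts 22.4 kb further on, so that transcripts from different starts cannot be told apart in them.

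Upstream sequences of the genes are shown because most of them share letters that interferon-response factors are known to read. The RefSeq promoter table (GRCm38.p6, reference strain) held 9 windows for the 6 genes, and the 250 bases before the start are printed for one window each of Ifit1, Ifit3, Ifit3b, Ifit1bl1 and Ifit2. Capitals mark TTTCNNTTTC, or GAAANNGAAA on the other strand, the core of an interferon-stimulated response element. The sequences run 5′ to 3′ along the gene's strand.
Ifit1 (chr19:34640639-34640888, plus strand): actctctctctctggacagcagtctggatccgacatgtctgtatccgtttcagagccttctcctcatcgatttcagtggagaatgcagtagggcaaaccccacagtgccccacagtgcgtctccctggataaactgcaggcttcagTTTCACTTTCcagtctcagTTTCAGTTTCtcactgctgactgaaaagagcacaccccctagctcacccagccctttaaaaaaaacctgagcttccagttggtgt
Ifit3 (chr19:34583279-34583528, plus strand): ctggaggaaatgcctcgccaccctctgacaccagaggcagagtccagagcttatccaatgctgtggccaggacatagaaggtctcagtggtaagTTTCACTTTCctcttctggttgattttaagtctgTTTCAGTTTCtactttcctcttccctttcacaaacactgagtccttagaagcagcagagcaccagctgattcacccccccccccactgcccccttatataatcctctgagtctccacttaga
Ifit3b (chr19:34607707-34607956, plus strand): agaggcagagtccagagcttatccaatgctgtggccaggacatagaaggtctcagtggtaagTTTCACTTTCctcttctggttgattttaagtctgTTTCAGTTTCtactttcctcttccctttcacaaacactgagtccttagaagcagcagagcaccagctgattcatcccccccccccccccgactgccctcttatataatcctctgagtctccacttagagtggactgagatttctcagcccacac
Ifit1bl1 (chr19:34601969-34602218, minus strand): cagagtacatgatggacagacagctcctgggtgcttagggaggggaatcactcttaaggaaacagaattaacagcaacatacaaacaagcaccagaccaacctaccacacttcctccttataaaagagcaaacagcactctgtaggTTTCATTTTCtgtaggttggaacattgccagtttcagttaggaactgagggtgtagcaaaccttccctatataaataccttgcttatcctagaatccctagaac
Ifit2 (chr19:34550444-34550693, plus strand): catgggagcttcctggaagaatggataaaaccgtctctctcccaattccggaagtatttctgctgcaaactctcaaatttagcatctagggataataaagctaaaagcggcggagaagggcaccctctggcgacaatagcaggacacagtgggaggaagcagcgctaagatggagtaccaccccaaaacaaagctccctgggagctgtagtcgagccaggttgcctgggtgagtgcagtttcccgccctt

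Ifit1 held 2 matches, TTTCACTTTC beginning 104 bases and TTTCAGTTTC 85 bases before the start. Ifit3 and Ifit3b each held both of these words, beginning 156 and 122 bases before the start in Ifit3 and 188 and 154 in Ifit3b, and the aligned parts of their windows were 96.9% identical over 224 columns. In Ifit1bl1 the match TTTCATTTTC began 104 bases before the start. The first window of Ifit1bl2 shared 145 bases with that of Ifit1 on the opposite strand, and its 2 matches were the same bases read from the other side. The other window of Ifit1bl2 held no match. Neither of the 2 Ifit2 windows, both at its upstream starts, held these letters. No window lay before its long last exon, 22.4 kb further on, so a start there was not examined. At least 1 match was held by 2.98% and at least 2 by 0.180% of all 32851 windows. By gene, 3.46% of 27025 genes held a match, against 8 of the 30 other interferon-stimulated effector genes found in the table (26.7%). A match is a description of the letters and does not show binding, and 4T1 derives from another strain than the reference.

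Ifit1, Ifit3 and Ifit3b were several-fold higher in uniSTING than in Mock, whereas Ifit2, the most abundant member in Mock, was 1.15-fold higher. Across all genes 50.2% passed the test in either direction, so a call alone says little about a gene. In the edgeR quasi-likelihood test with Benjamini-Hochberg adjustment over 12972 genes, 4 members had enough counts to be tested and all 4 passed an adjusted p of 0.05 upward, beside 24.9% of all tested genes. Ifit3b entered the test through its uniSTING counts alone, and Ifit1bl1 and Ifit1bl2 had too few counts, so that the count of 4 is a description. At least 2-fold rises were found for 3 members, Ifit3b among them, and for 2.00% of all tested genes.

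**Figure D1:**
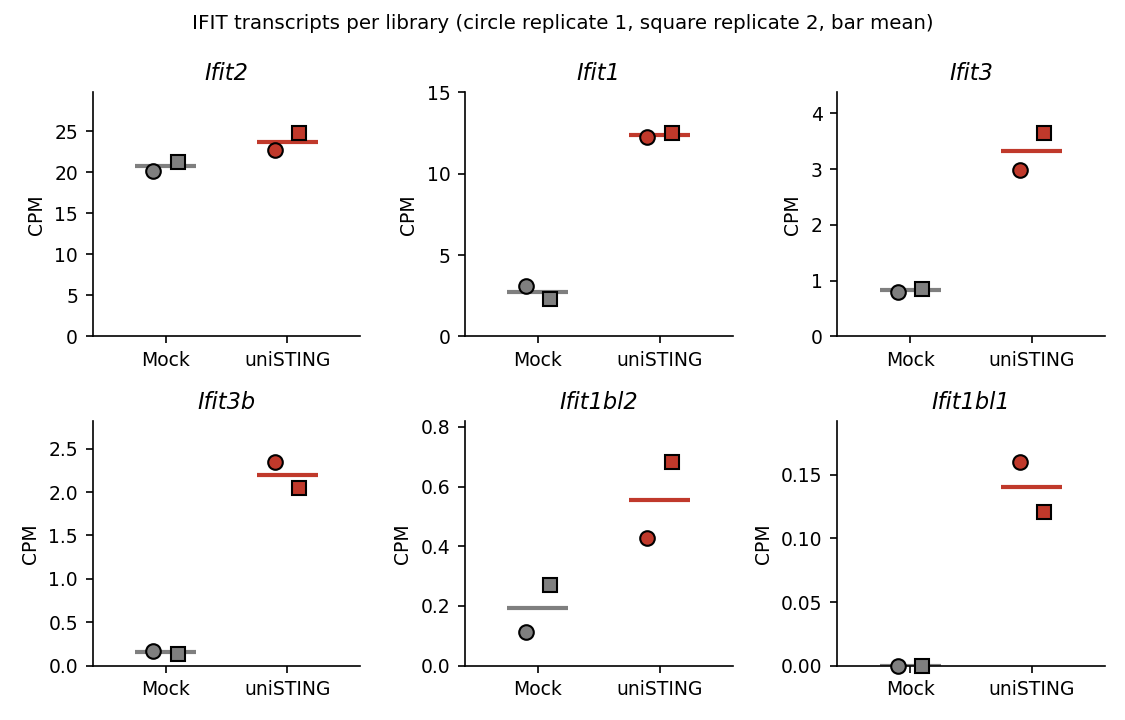
CPM (counts per 1000000 of the scaled library size, linear axes from 0) of each IFIT gene in the 4 libraries, with circles for replicate 1, squares for replicate 2 and bars for the mean of a group. Both uniSTING libraries lie above both Mock libraries in every panel, by a small step for Ifit2 and by a large one for Ifit1, Ifit3 and Ifit3b. The same order held for 37.8% of all tested genes.

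Ifit1, the sensor of RNA ends, gave 55 and 51 counts with Mock against 230 and 312 with uniSTING, which is 3.12 and 2.31 CPM against 12.3 and 12.5 CPM. The groups did not overlap, as was the case upward for 37.8% of all tested genes, and the 4 pairwise ratios of a uniSTING to a Mock library ran from 3.93 to 5.43. The log2 fold change was 2.21 (SE 0.15, 95% interval 1.88 to 2.54, edgeR adjusted p = 5.32e-07). It ranked 40 among 12972 from the highest fold change down.

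Ifit3, the adaptor member, gave 14 and 19 counts with Mock against 56 and 91 with uniSTING, or 0.794 and 0.859 against 2.99 and 3.65 CPM. The lower uniSTING library was 3.48 times the higher Mock library. The log2 fold change was 2.00 (SE 0.27, 95% interval 1.40 to 2.60, edgeR adjusted p = 1.07e-04).

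Ifit3b, a close copy of Ifit3, was nearly silent in Mock, with 3 counts in each library, and had 44 and 51 counts in uniSTING. These are 0.170 and 0.136 CPM against 2.35 and 2.05 CPM. The ratio of summed counts was 14.4 (exact 95% binomial interval 6.38 to 40.3, counting error only). The fitted log2 fold change was 3.80 (SE 0.44), given as a description because the gene passed the expression filter through uniSTING alone. The fold rests on the 6 Mock counts, and its fitted interval spans more than that of any other tested member.

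Reads were counted only where they mapped to 1 place, and Ifit3 and Ifit3b share long stretches. In reference transcripts (GENCODE M21), 51.2% of the 50-base windows of Ifit3 and 44.5% of those of Ifit3b occur in the other gene, and 31.7% and 27.4% of 100-base windows. A read that falls wholly in such a stretch cannot be placed by itself, so the levels of both genes are uncertain. Counting was in paired-end mode, and how many pairs were lost was not tested. Summed, the pair gave 17 and 22 counts with Mock against 100 and 142 with uniSTING, a log2 fold change of 2.49 (edgeR adjusted p = 2.83e-06). The summed pair passed the test too, but any reads lost in the shared stretches are missing from the sum as well. Ifit1 shared 7.06% of its 50-base windows with Ifit1bl2, and Ifit2 shared none with any gene.

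Ifit2 gave 356 and 470 counts with Mock against 425 and 618 with uniSTING, or 20.2 and 21.3 against 22.7 and 24.8 CPM. Both uniSTING libraries were above both Mock libraries, as for 37.8% of all tested genes, with pairwise ratios from 1.07 to 1.23. The log2 fold change was 0.20 (SE 0.0756, 95% interval 0.03 to 0.37) with an edgeR adjusted p of 0.0493, just under the threshold. The call was lost with DESeq2 (adjusted p = 0.254), in edgeR with DESeq2's size factors (adjusted p = 0.0520), without the low count filter (adjusted p = 0.0627), with the replicate number as a block (adjusted p = 0.0587) and with a gene length trend removed (adjusted p = 0.0685). It was also lost without Mock replicate 1 (log2 fold change 0.15, adjusted p = 0.230), Mock replicate 2 (adjusted p = 0.0696) or uniSTING replicate 2 (log2 fold change 0.12, adjusted p = 0.361).

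The small members had too few counts for the expression filter. Tested in edgeR without it, neither passed (adjusted p = 0.110 for Ifit1bl2 and 0.170 for Ifit1bl1), and Ifit1bl2, which entered 3 of the fits with a library left out, did not pass there either (adjusted p from 0.0999 to 0.357). Ifit1bl2 gave 2 and 6 counts with Mock against 8 and 17 with uniSTING, a ratio of summed counts of 2.85 (exact 95% binomial interval 1.24 to 7.30). Ifit1bl1 was without a count in both Mock libraries and had 3 in each uniSTING library. With Mock set to a floor of 3 counts in all, it was 1.82-fold higher in uniSTING. With the counting error of the 6 uniSTING counts included, the exact 95% lower limit of the ratio was 1.07. That floor is 0.0755 CPM in Mock, against 0.140 ± 0.0280 CPM (SD, n = 2) in uniSTING, so little can be said of its size at this depth. Both genes, which encode IFIT1-like proteins, had higher values in both uniSTING libraries than in either Mock library. The share of 37.8% with this order covers tested genes only and is no background for these 2.

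**Figure D2:**
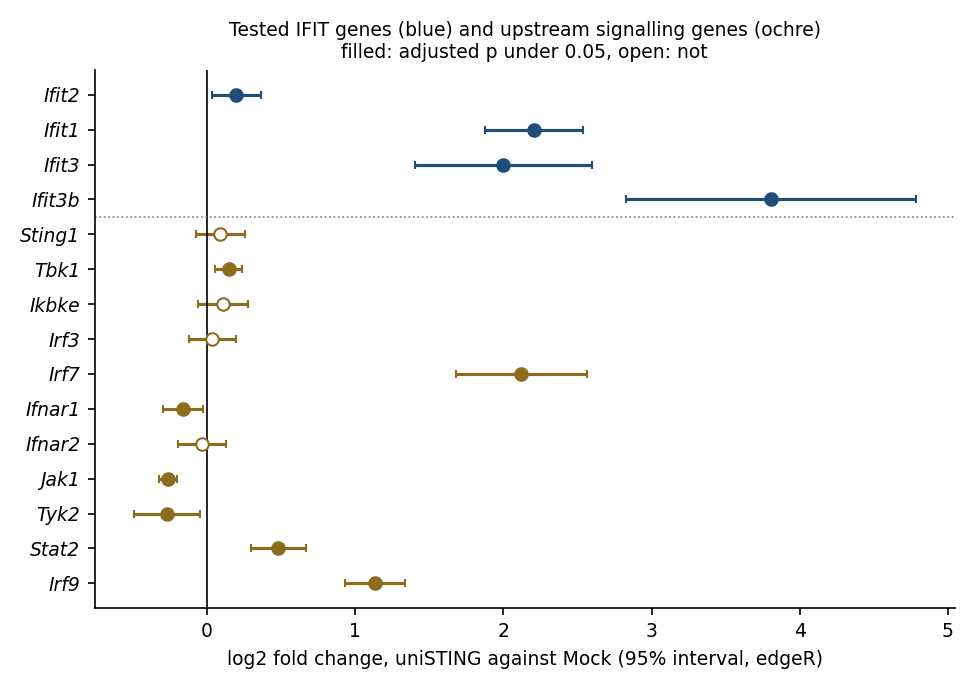
Log2 fold changes of uniSTING against Mock with 95% intervals from edgeR for the 4 tested IFIT genes (blue) and 11 signalling genes (ochre), filled where the adjusted p was under 0.05. Ifit1 and Ifit3 overlap near 2, Ifit3b lies to their right and Ifit2 close to 0, and of the signalling genes Irf7 and Irf9 lie furthest to the right.

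The members differed among themselves in the size of the change. The log2 fold change of Ifit1 exceeded that of Ifit2 by 2.01 (95% interval 1.64 to 2.38, errors taken as independent), and Ifit2 minus Ifit3 was -1.80 (95% interval -2.42 to -1.18). Ifit1 and Ifit3 differed by 0.21, and the interval of that difference (-0.47 to 0.89) includes 0. Ifit1 minus Ifit3b was -1.60 (95% interval -2.63 to -0.57) and Ifit3 minus Ifit3b -1.80 (95% interval -2.95 to -0.66), each resting on the 6 Mock counts of Ifit3b and given as a description.

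Levels of the members were compared per kb of exon, without a correction for stretches shared between members. Such stretches are long in Ifit3 and Ifit3b, so their per-kb levels and shares of the family signal may be too low. In Mock, Ifit2 stood first at 5.28 ± 0.192 CPM per kb (SD, n = 2), followed by Ifit1 at 1.02 ± 0.216 and Ifit3 at 0.474 ± 0.0265 CPM per kb. Ifit3b (0.0764 ± 0.0122 CPM per kb) and Ifit1bl2 (0.0571 ± 0.0332 CPM per kb) overlapped in Mock and could not be ordered, and Ifit1bl1 was at 0. In uniSTING the order was Ifit2 at 6.04 ± 0.385, Ifit1 at 4.67 ± 0.0686, Ifit3 at 1.90 ± 0.270, Ifit3b at 1.10 ± 0.106, Ifit1bl2 at 0.165 ± 0.0537 and Ifit1bl1 at 0.0620 ± 0.0124 CPM per kb, with no overlap between neighbours. The uniSTING libraries thus had Ifit1 close to the level of Ifit2, with 4.62 and 4.72 CPM per kb of Ifit1 beside 5.77 and 6.32 of Ifit2.

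**Figure D3:**
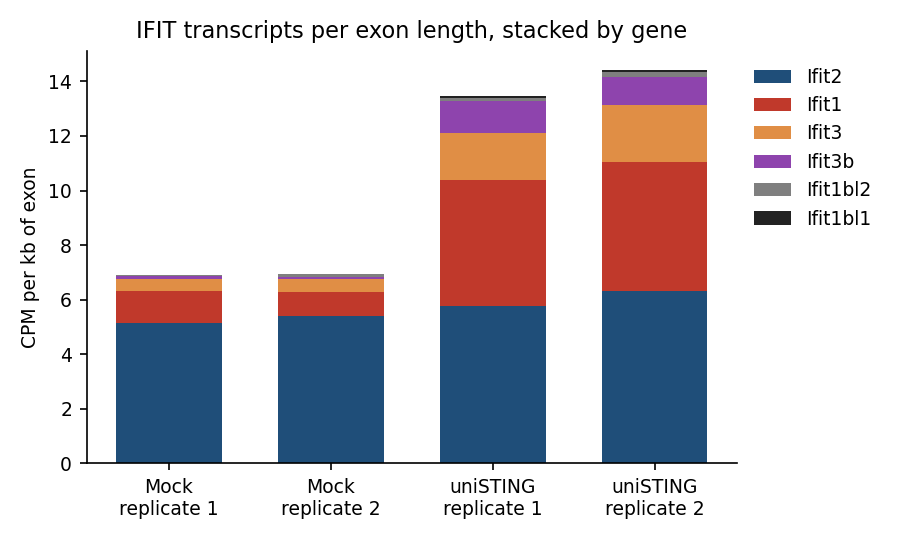
Stacked levels of the 6 IFIT genes in each library, in CPM per kb of exon from 0. The Ifit2 part is of similar height in all 4 libraries, while the Ifit1, Ifit3 and Ifit3b parts are taller in both uniSTING libraries, which reach 13.5 and 14.4 against 6.89 and 6.92 in Mock.

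The make-up of the family signal differed accordingly. Ifit2 gave 74.6% and 78.2% of the family's per-kb signal with Mock against 42.8% and 43.9% with uniSTING. The share of Ifit1 was 17.0% and 12.5% in Mock and 34.3% and 32.7% in uniSTING, and that of Ifit3b 1.23% and 0.980% against 8.71% and 7.11%. Summed over members, IFIT transcripts went from 24.6 ± 0.315 CPM with Mock to 42.3 ± 2.11 CPM with uniSTING (SD, n = 2), a ratio of 1.72. Without Ifit2 the sums were 3.88 ± 0.441 and 18.6 ± 0.595 CPM, a ratio of 4.79. These sums were not tested.

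Genes around the cluster were mostly silent, and none passed the test. Within 100 kb of either end or between the members, 7 other genes are annotated, of which 3 had no count and 1 had enough to be tested. That gene, Lipa, which encodes lysosomal acid lipase, gave 293 and 306 counts with Mock against 240 and 323 with uniSTING (log2 fold change -0.23, SE 0.10, edgeR adjusted p = 0.0722). Ch25h, a cholesterol hydroxylase gene known to respond to interferon, had 0 and 2 counts with Mock and none with uniSTING. Slc16a12, a transporter gene past Ifit1, had 2 and 0 counts with Mock against 9 and 0 with uniSTING, all in the replicate 1 libraries.

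**Figure D4:**
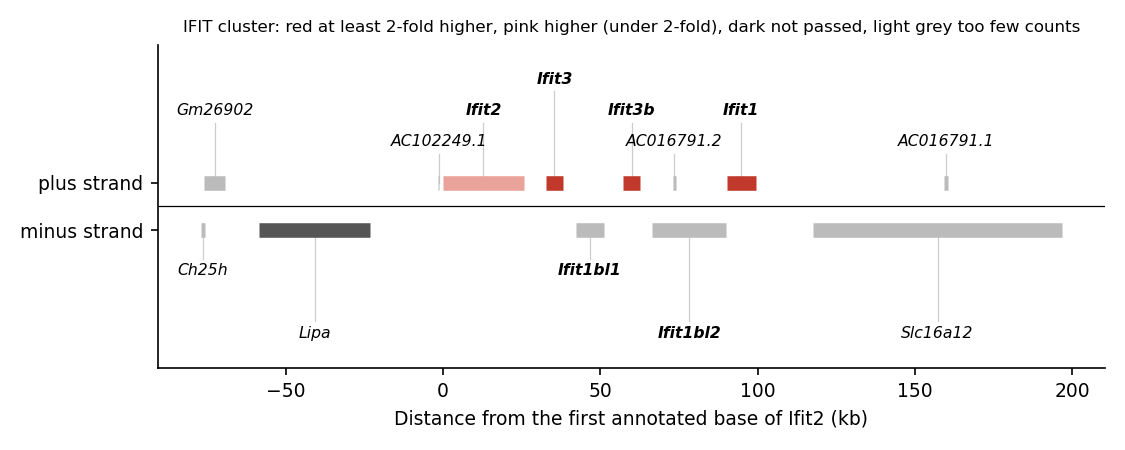
Map of the IFIT cluster, with genes as bars by strand along the distance from the first annotated base of Ifit2 in kb, and IFIT members in bold. Ifit1, Ifit3 and Ifit3b (red, at least 2-fold higher) are spread among members below the expression filter (light grey), Ifit2 (pink) passed at 1.15-fold, and Lipa (dark) did not pass.

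Transcripts of interferons, the ligands upstream of IFIT induction, were scarce. Of 20 interferon genes 17 had no count in any library, and the list summed to 8 counts in Mock and 33 in uniSTING. Ifnb1, the type I interferon that STING signalling is best known to induce, gave 3 and 0 counts with Mock against 4 and 8 with uniSTING, a ratio of 3.64 with an exact 95% binomial interval of 0.983 to 20.1 that includes 1. Ifnz, a type I interferon with close copies in the genome, gave 3 and 2 counts with Mock against 9 and 10 with uniSTING, a ratio of 3.46 with an interval of 1.25 to 11.9 that lies above 1. These intervals cover counting error only. None of the 3 genes with counts passed the expression filter, and in edgeR without it none passed an adjusted p of 0.05 (Ifnb1 0.310, Ifnz 0.134, Ifne 0.529) or an unadjusted p of 0.05 (0.147, 0.0501 and 0.335). Both uniSTING libraries together held 12 Ifnb1 and 542 Ifit1 counts.

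Of 11 genes that carry the signal to IFIT genes, all were tested, 4 rose (36.4%, beside 24.9% of all tested genes), 3 fell (beside 25.4%) and 4 did not pass, with a median log2 fold change of 0.09 beside 0.01 over all tested genes. Irf7, Irf9 and Stat2, which encode factors that act at interferon-response elements, had the largest changes of the list. Irf7 gave 28 and 53 counts with Mock against 182 and 199 with uniSTING (log2 fold change 2.12, SE 0.20, edgeR adjusted p = 6.78e-06), a change of the size of that of Ifit1. Irf9 rose from 9.30 ± 1.04 to 20.5 ± 0.155 CPM, and its partner Stat2 rose 1.40-fold.

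The other genes of the list, Irf3 among them, moved less. Sting1, the endogenous adaptor gene, gave 348 and 430 counts with Mock against 408 and 498 with uniSTING and did not pass (log2 fold change 0.09, edgeR adjusted p = 0.353). Irf3 (0.04, adjusted p = 0.706), the kinase gene Ikbke (0.11, adjusted p = 0.275; with the length trend removed it passed at 0.26, adjusted p = 0.0160) and the receptor gene Ifnar2 (-0.03, adjusted p = 0.725) did not pass either. Tbk1, the kinase below STING, rose 1.11-fold. Jak1, a kinase of the interferon receptor, fell from 162 ± 1.34 to 135 ± 3.26 CPM (edgeR adjusted p = 1.89e-05), and the receptor gene Ifnar1 (log2 fold change -0.16, adjusted p = 0.0466) and the receptor kinase gene Tyk2 (-0.27, adjusted p = 0.0458) passed just under the threshold.

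Calls of Tbk1, Ifnar1 and Tyk2 were lost with DESeq2 (adjusted p from 0.115 to 0.189), and those of Ifnar1 and Tyk2 with the length trend removed (adjusted p = 0.211 and 0.189). Single libraries decided them too: Tbk1 was lost in the absence of Mock replicate 1 (adjusted p = 0.0902) or of uniSTING replicate 2 (0.0688), Ifnar1 in that of Mock replicate 2 (0.211) or of uniSTING replicate 1 (0.161), and Tyk2 without any library but Mock replicate 1 (adjusted p from 0.0622 to 0.495).

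Other interferon-stimulated effector genes mostly went the way of Ifit1. Of 43 listed genes 39 were tested, 34 of them rose (87.2%, beside 24.9% of all tested genes), Zc3hav1 fell and 4 did not pass, with a median log2 fold change of 0.95. At least 2-fold rises were found for 19, Mx2, Oas2 and Usp18 among them, beside 2.00% of all tested genes. Ifi44 rose 7.40-fold and Ifi27 from 19.8 ± 2.93 to 48.1 ± 1.92 CPM, while the abundant Ifitm3 rose 1.55-fold. Oas2 was without a count in Mock and had 35 counts over the uniSTING libraries. With Mock set to the same floor it was 10.6-fold higher, and the exact 95% lower limit of its ratio was 8.19. Of the tested genes Mx2, Oas2 and Usp18 passed the expression filter through their uniSTING counts alone, and of the other 36 genes 31 rose. The fold changes of Ifit1 and Ifit3 were thus above the median of this list and that of Ifit2 below it.

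**Figure D5:**
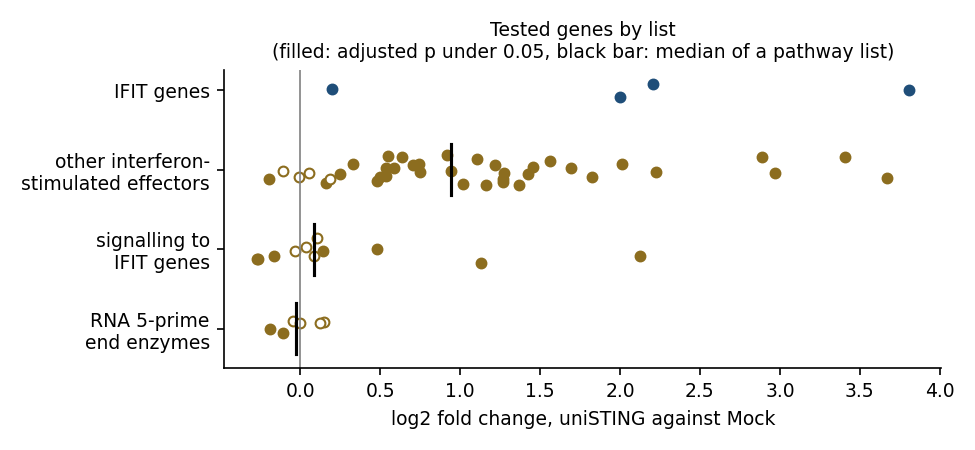
Log2 fold changes of tested genes by list, filled where the edgeR adjusted p was under 0.05, with black bars at the medians of the pathway lists and Oas2 drawn at its lower bound. Most effector genes lie right of 0 with a median of 0.95. Ifit2 lies at their lower end, Ifit1 and Ifit3 in their upper part and Ifit3b at their upper end beside Mx2 and Oas2.

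IFIT1 reads how an RNA end is capped, so the enzymes that make or remove such ends were listed as well. Of 6 tested genes none rose (beside 24.9% of all tested genes) and 2 fell (beside 25.4%), near the share over all genes, with a median of -0.02. Pcif1, which methylates cap-proximal adenosine, fell by 0.19 on the log2 scale (edgeR adjusted p = 0.0162), and Dusp11, which trims triphosphate ends, fell from 101 ± 1.52 to 93.8 ± 0.880 CPM (adjusted p = 0.0170). Neither list call was left with DESeq2, with the length trend removed or without Mock replicate 2 (0 lower), and 1 was left without uniSTING replicate 2. Ramac (log2 fold change 0.15, edgeR adjusted p = 0.0739) and Cmtr2 (-0.05, adjusted p = 0.554) did not pass. Rnmt, the cap guanine methyltransferase gene, was at 62.1 ± 1.38 and 62.1 ± 1.37 CPM. Cmtr1, which methylates the cap-proximal ribose, gave 19 and 29 counts with Mock against 30 and 26 with uniSTING (edgeR adjusted p = 0.806).

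The 5 other genes with profiles nearest to the mean profile of the 4 tested members were found by the distance between gene-centred log2 CPM over the 4 libraries. They were Rsad2 (distance 0.123), which encodes the antiviral enzyme viperin, Smtnl2 (0.134), Ak3l2-ps (0.197), the glycolytic enzyme gene Eno2 (0.207) and Mir99ahg (0.228), against a median distance of 1.87 over all tested genes. Rsad2 gave 27 and 33 counts with Mock against 108 and 161 with uniSTING, a log2 fold change of 2.02. Ak3l2-ps gave 5 and 7 counts with Mock against 24 and 31 with uniSTING, and Mir99ahg 2 and 2 against 14 and 16. Both, like Ifit3b within the mean profile, passed the expression filter through uniSTING alone. Among the members themselves Ifit3 stood at 0.217 and Ifit1 at 0.377 from this mean, with Ifit3b (1.36) and Ifit2 (1.67) far from it on opposite sides. With 4 libraries in 2 groups this distance mostly ranks genes by the size of their change.

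Total counts ran from 17502694 to 25071840 per library. The 7 epithelial markers, Krt8, Krt18 and Epcam among them, all had counts. They summed to between 3760 and 3794 CPM in Mock and between 3969 and 3993 CPM in uniSTING. Single markers moved apart within this sum. Krt19 went from 67.0 and 64.9 CPM with Mock to 129 and 134 CPM with uniSTING. Cldn4 went from 291 and 300 to 421 and 417 CPM, whereas Cdh1 went from 630 and 622 to 545 and 545 CPM. Of 8 leukocyte markers, Itgam and Ncr1 had no count, and the list summed to between 1.04 and 1.76 CPM in Mock and between 1.32 and 2.40 CPM in uniSTING. Ptprc, the pan-leukocyte marker, had 8 counts in Mock replicate 1 and 19 in uniSTING replicate 1 and none in either replicate 2 library. Csf1r, another marker of this list, gave 21 and 22 counts with Mock against 23 and 28 with uniSTING. Fibroblast markers (5 of 5 with a count) summed to between 7.78 and 10.3 CPM in Mock and between 9.83 and 13.1 CPM in uniSTING. Pdgfra made up most of this sum, at 7.14 and 6.38 CPM in Mock and 8.91 and 8.55 CPM in uniSTING. Endothelial markers (4 of 4) summed to between 0.226 and 1.87 CPM in Mock and between 0.321 and 1.23 CPM in uniSTING. Dcn had 7 counts in Mock replicate 1, 13 in uniSTING replicate 1 and none in either replicate 2 library. Col1a2, Pecam1 and Cdh5 were also higher in replicate 1 of both groups, whereas Tek was not in uniSTING. The part of these scarce cell type transcripts in the IFIT change was not tested. In bulk RNA a larger share of responding cells and more RNA per cell cannot be told apart. The labels number the libraries as preparations and do not say that they came from separate cultures, and per the file headers the alignment names of a group differ only in a running number. The p-values therefore measure a spread between libraries that may be technical.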

How the data were processed

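RNA sequencing counts of 4 libraries were used, 2 per group, with groups and replicate numbers taken from the sample titles. The authors deposited unnormalized gene counts. Per the file headers, they were made with featureCounts 2.0.1 in paired-end mode, without a strand option, over exons grouped by gene, from uniquely mapped reads on the Ensembl 103 annotation of GRCm39. Alignment used HISAT2, per the submitters' processing notes (version not given in the sources used here). Reads of antisense genes cannot be told apart, and near-identical copies can lose reads.

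Symbols were found for 52093 of 53647 identifiers. The test was that of edgeR 4.0.16, run in R 4.3.3 (TMM, expression filter by group with a minimum count of 10 and total of 15, quasi-likelihood F test, Benjamini-Hochberg over 12972 genes, threshold 0.05). The SE was derived from the F statistic and is approximate. CPM is counts per 1000000 of TMM-scaled library size. Ratios of summed counts have exact Clopper-Pearson 95% intervals, and a count of 0 was set at 3 counts over the group. Intervals and floors cover counting error only.

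Alternatives were DESeq2 1.42.0, limma-voom (limma 3.58.1), edgeR with DESeq2 size factors, without a filter or with one of 1 CPM in 2 libraries, the replicate number as a block, removal of a length trend (lowess, span 0.3), each library left out, and Ifit3 with Ifit3b summed. Only the main edgeR fit was also run on simulated counts, with a common dispersion for all genes. Named genes are the 6 members, all genes within 100 kb, the 5 with the nearest profiles (no clone or predicted names), the 11 signalling genes, up to 4 with the smallest p from each other list, and marker genes. Oas2, Zc3hav1, Rnmt, Cmtr1, Ifnb1, Ch25h and Slc16a12 were partly picked after their values were seen. A further gene of the signalling list and one leukocyte marker are not reported here. Members and lists were chosen with earlier results of these data known. Promoter windows were read from the RefSeq table of GRCm38.p6 and aligned with Biopython 1.88, and proteins were not used here.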

Additional observations from a re-analysis of the deposited data

How the results depend on the processing

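All 44 recomputed fold changes of the 4 tested IFIT genes kept their direction, and all 33 of Ifit1, Ifit3 and Ifit3b stayed past the threshold, with log2 fold changes from 1.99 to 2.42 for Ifit1, from 1.83 to 2.14 for Ifit3 and from 3.64 to 3.95 for Ifit3b. Ifit2 (0.12 to 0.26) was no longer past the threshold in 8 of 11 alternatives (adjusted p from 0.0391 to 0.361 over all 11). The Ifit3b calls are given as a description, since the gene passed the expression filter of the main fit through uniSTING alone. With DESeq2 the signalling list had 3 genes higher and 1 lower and the RNA end list 0 lower. With the length trend removed these lists had 1 and 0 lower, and 5 signalling genes were higher, Ikbke added. One RNA end gene was higher (1) with limma-voom and with the replicate block. Leaving out each library gave 3 to 4 signalling genes higher and 1 to 3 lower, and 0 to 1 RNA end genes higher and 0 to 2 lower. Fold changes near 0 changed sign: Irf3 was at -0.0035 (adjusted p = 0.975) with the length trend removed and ran from -0.023 to 0.091 over the libraries left out, and Ifnar2 ran from -0.076 to 0.0011. The cause was not tested. A fit without a library takes the lone library of its group to vary like the other group.

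The labels do not say that replicate numbers pair libraries, and the main fit left them out. In both groups, however, replicate 1 had the lower total but more genes with a count. These were 18152 against 17604 genes in Mock and 18478 against 17879 in uniSTING. Differences between replicates 1 and 2 correlated between the groups (r = 0.628 across 12972 genes, which are not independent replicates). With the replicate block 3374 genes were higher and 3403 lower, and the IFIT calls were 3, with Ifit2 lost at an adjusted p of 0.0587. Depth limits Ifit1bl1 and Ifit1bl2, with 6 and 33 counts over the 4 libraries.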
